A study of Mus musculus with 20 samples.

Results

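The cytochrome P450 enzymes, the UDP-glucuronosyltransferases and sulfotransferases that conjugate their products, and the alcohol dehydrogenases, aldehyde dehydrogenases and carboxylesterases that work beside them were followed in sorted epithelial cells of the mouse small intestine. Members were taken by symbol alone: every gene of the 2 deposited count tables whose symbol starts with Cyp and a digit, Ugt1, Ugt2, Sult, Adh and a digit, Aldh, or Ces and a digit, with Cyp51 and Cyp4a10 left out. The rule gave 75 genes of 12179 named in either table, namely 29 cytochromes P450, 15 aldehyde dehydrogenases, 11 carboxylesterases, 9 UDP-glucuronosyltransferases, 6 sulfotransferases and 5 alcohol dehydrogenases. Of these, 64 were in the table of GFP-high cells and 72 in that of GFP-low cells, with 61 in both.

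All mice were C57BL/6J, 8 weeks old, and carried Lgr5-GFP, a reporter driven by the gene of the stem cell receptor Lgr5. One group of mice was Itgb7+/+ (wild type, WT) and the other Itgb7-/- (knockout, KO). The gene encodes integrin beta 7, which lymphocytes use to enter and stay in the gut, and the comparison of genotypes asked what its loss changes in the epithelium. From each mouse, crypt cells that were viable, EpCAM+ and negative for CD45, CD31 and TER119 were sorted into a GFP-high population, labelled stem cells, and a GFP-low population, labelled transit-amplifying (TA) cells. The 20 libraries formed 4 groups of 5. The labels number the WT mice 1, 3, 6, 7 and 8 and the KO mice 2, 3, 4, 5 and 6, and values of single libraries are listed in that order throughout. The sources used here do not give how the Itgb7 and reporter alleles were made, the sex of the mice or any pooling.

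Total counts per library ran from 20900404 to 27838392. The transcript of Itgb7 is not analysed here, which leaves the genotypes as labelled. The populations were compared on cell type markers. All 10 stem cell markers were lower in GFP-low cells of both genotypes (edgeR, adjusted p under 0.05), and every marker tested for goblet (9), Paneth (13) and enteroendocrine (11) cells was higher in both. Enterocyte markers were higher in 13 of 13 cases in WT and 12 of 13 in KO mice, and tuft cell markers in 8 of 8 and 7 of 8. The GFP-low population therefore held transcripts of mature lineages. No list held markers of TA cells, so that label itself was not tested. Of 13 T cell and intraepithelial lymphocyte markers, 5 were in the GFP-high and 4 in the GFP-low table, without Ptprc, Cd3d, Cd3e or Cd8a. Summed over those listed, they came to between 4.02 and 79.2 counts per 1000000 (CPM) in any library. Of 8 myeloid markers 4 and 3 were listed, with 2 higher in GFP-low cells, and of 8 stromal and endothelial markers only Vim, which was higher there too. The 13 listed Paneth cell markers alone took 1.76% to 6.79% of the counts in GFP-high libraries and 2.80% to 20.1% in GFP-low libraries.

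Cytochromes P450 are haem enzymes that insert oxygen into drugs, dietary chemicals, fatty acids and sterols, with electrons passed on by cytochrome P450 reductase. Carboxylesterases cut esters, and alcohol and aldehyde dehydrogenases oxidise alcohols to aldehydes and aldehydes to acids, including retinol to retinoic acid. UDP-glucuronosyltransferases and sulfotransferases then attach glucuronic acid or sulfate, which makes the products soluble and ready for export. In the small intestine this system is best known from absorptive enterocytes, where it limits how much of a swallowed compound reaches the blood.

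RefSeq promoter windows, here the 250 bases before an annotated start on GRCm38.p6, were matched by symbol to 65 of the 75 members, with 76 windows in all. The letters CAAAGTCCA, a site form known for the enterocyte and liver receptor HNF4, were found on either strand in windows of 4 members: Cyp2c40, Cyp2c65, Cyp2c68 and Cyp3a11. Among all 32851 windows, 0.384% held them. The windows of Cyp2c40 and Cyp2c68 are near copies over most of their length, so the 4 matches are not 4 separate occurrences. All 4 windows with a match are shown. Cyp2c68 and Cyp2c65 were among the 3 P450 rises with the smallest p in WT mice below, while the other of these, Cyp3a13, had no match. Cyp3a11 was among the members that varied most between mice. Capitals mark CAAAGTCCA. The window of Cyp2e1, the P450 that fell most between the populations, stands beside them with TATAAA in capitals, whose first base lies 31 bases before the start.
Cyp2c40 (chr19:39812815-39813064, minus strand): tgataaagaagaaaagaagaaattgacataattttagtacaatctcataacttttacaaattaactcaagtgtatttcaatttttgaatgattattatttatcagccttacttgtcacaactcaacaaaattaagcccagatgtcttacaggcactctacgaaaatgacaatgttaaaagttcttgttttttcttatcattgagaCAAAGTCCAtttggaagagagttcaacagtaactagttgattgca
Cyp2c65 (chr19:39060756-39061005, plus strand): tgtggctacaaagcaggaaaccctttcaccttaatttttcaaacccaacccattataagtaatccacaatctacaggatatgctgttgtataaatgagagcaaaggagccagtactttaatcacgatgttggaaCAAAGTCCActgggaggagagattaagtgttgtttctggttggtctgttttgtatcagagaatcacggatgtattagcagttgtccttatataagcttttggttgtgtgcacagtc
Cyp2c68 (chr19:39741102-39741351, minus strand): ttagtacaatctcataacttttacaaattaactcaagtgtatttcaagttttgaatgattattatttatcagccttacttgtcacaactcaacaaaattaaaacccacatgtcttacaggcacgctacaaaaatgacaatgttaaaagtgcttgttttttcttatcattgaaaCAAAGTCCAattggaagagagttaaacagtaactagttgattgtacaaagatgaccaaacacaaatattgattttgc
Cyp3a11 (chr5:145879855-145880104, minus strand): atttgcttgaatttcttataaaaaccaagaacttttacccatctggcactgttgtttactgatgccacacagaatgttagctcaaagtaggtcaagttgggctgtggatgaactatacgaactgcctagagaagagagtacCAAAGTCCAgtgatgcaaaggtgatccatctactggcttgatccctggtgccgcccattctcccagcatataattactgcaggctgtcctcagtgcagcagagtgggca
Cyp2e1 (chr7:140763569-140763818, plus strand): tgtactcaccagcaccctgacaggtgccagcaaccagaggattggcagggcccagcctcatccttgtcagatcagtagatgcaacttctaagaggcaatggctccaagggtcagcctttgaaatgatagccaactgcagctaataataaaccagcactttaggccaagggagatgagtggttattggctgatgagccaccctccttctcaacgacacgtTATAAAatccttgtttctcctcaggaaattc
The first base of CAAAGTCCA lies 45 bases before the start in Cyp2c40, 77 in Cyp2c68, 109 in Cyp3a11 and 116 in Cyp2c65. These starts are those of RefSeq. The gene spans of GENCODE M21, used for positions below, reach into the windows of Cyp3a11 and Cyp2e1 and take in their marked letters.

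The other motifs searched on both strands gave these counts. The core of an HNF1 site was in windows of Cyp4a32, Cyp4f40, Sult1d1, Ugt1a1 and Ugt1a9 (5 of 76 windows; 0.371% of all). TATAAA was in windows of 14 members (12.4% of all windows). The letters AGATAA, known from binding sites of GATA factors, were in those of 15 (9.99%). The letters CTTTGAA, known from sites of TCF factors, were in those of 7 (4.46%). TNGCGTG, the core bound by the aryl hydrocarbon receptor, was in 5 (4.10%) and TTTATGA, a CDX form, in 1 (3.35%). No member window held the full HNF1 palindrome (0.00913% of all), either of 2 forms of the DR1 repeat that nuclear receptors bind (0.0335% and 0.0274%) or the second TCF form, CTTTGATC (0.801%). The full HNF1 form contains the core. A match describes these letters in this window, not a bound site.

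Most members were higher in GFP-low than in GFP-high cells, and a smaller group was lower. Of the 61 members held by both tables, 39 rose and 10 fell in WT mice (edgeR quasi-likelihood test, adjusted p under 0.05), and 12 did not pass. Among all 11281 genes tested in that comparison, 22.0% were called higher and 21.4% lower. In KO mice 40 members rose, 9 fell and 12 did not pass, where 26.2% of all 11282 genes were called higher and 24.4% lower. In either direction, 43.4% of all genes were called in WT and 50.5% in KO mice. The median log2 fold change of the members was 0.97 in WT and 0.86 in KO mice, beside -0.015 and -0.0086 for all genes. The same 38 members rose (62.3%, beside 19.7% of all genes) and the same 8 fell (13.1%, beside 17.4%) in both genotypes, and none was called in opposite directions. Within single mice, 37 members were higher in the GFP-low library of all 10 mice (60.7%, beside 21.7% of all genes) and 9 were lower in all 10 (14.8%, beside 20.9%).

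The fits are scaled by TMM factors, which set the bulk of genes near no change. With library totals alone as the scale, the all-gene median moved to -0.37 in WT and -0.27 in KO mice. The members' medians moved to 0.63 and 0.61. Then 33 members rose and 11 fell in WT, and 31 rose and 11 fell in KO mice. Of the calls over all genes, 50.63% were higher in WT and 51.81% in KO mice with TMM, and 19.54% and 27.28% with totals alone. In WT mice the calls of Aldh9a1, Ces1e, Cyp4f13 and Ugt2b34 were lost with totals alone, and Cyp4v3 fell (-0.56). Those of Aldh3a2 (0.34 against -0.0091) and Ugt1a6a (0.30 against -0.049) were lost too and changed sign. In KO mice totals alone ended the calls of Aldh18a1, Aldh1a7, Aldh1l1, Aldh9a1, Ces1e, Cyp2j6, Ugt1a6a, Ugt1a9 and Ugt2b36, and Aldh2 fell (-0.30, edgeR adjusted p = 0.0301). Single libraries also decided some KO rises. That of Aldh18a1 was lost without mouse 3, 5 or 6 of the GFP-high or mouse 2 or 6 of the GFP-low libraries (edgeR adjusted p = 0.0565 to 0.0731), and that of Aldh1a7 without mouse 3, 4 or 5 of the GFP-high or mouse 2 or 4 of the GFP-low libraries (0.0590 to 0.0968). The KO rise of Ugt1a6a was lost without mouse 2, 5 or 6 of the GFP-high or mouse 3 or 4 of the GFP-low libraries (0.0751 to 0.101), and that of Ces1e without mouse 2 or 6 of the GFP-high or mouse 3 or 4 of the GFP-low libraries (0.0689 to 0.0923). Leaving out 1 library gave 36 to 40 rises in KO mice and 38 to 39 in WT mice. In bulk sequencing of sorted populations, a transcript carried by fewer cells and one with less RNA in each cell cannot be told apart.

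**Figure D1:**
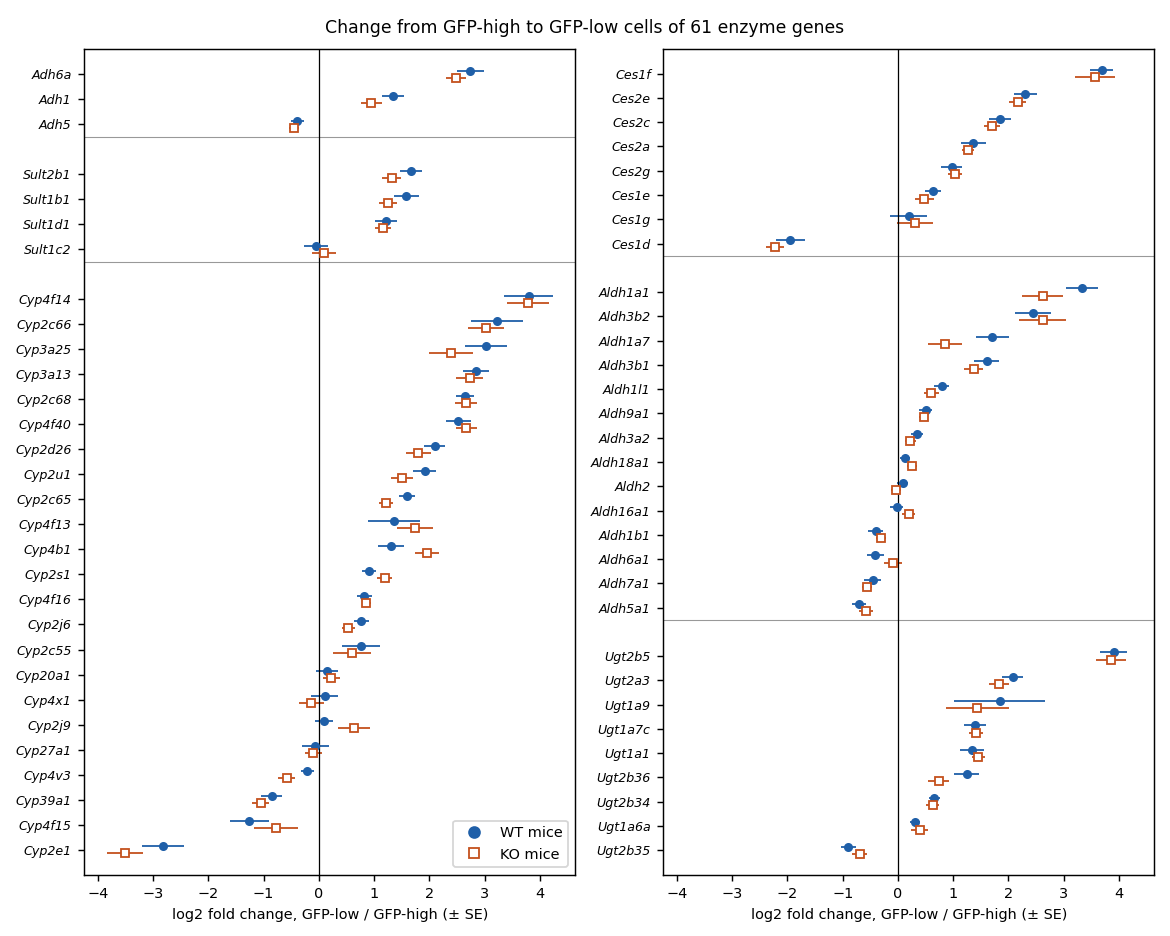
Log2 fold change between GFP-low and GFP-high cells (x axis) for the 61 members held by both tables, grouped by class, in WT mice (filled circles) and KO mice (open squares), with bars of 1 standard error on either side. Most points lie right of 0, with Ugt2b5 at 3.91 and Cyp2e1 at -2.83 in WT mice as the ends. Aldh3a2 and Ugt1a6a, close to 0, change sign in WT mice when library totals alone set the scale.

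Among the cytochromes P450, 14 rose, 3 fell and 6 did not pass of 23 tested in WT mice, and the counts were the same in KO mice. Thus 60.9% rose and 13% fell, beside 22.0% and 21.4% of all genes in WT and 26.2% and 24.4% in KO mice. These shares of all genes also stand beside the counts of the other classes below. Cyp2c68 (chr19:39688834-39741054, minus strand on GRCm38, the GENCODE M21 gene span, as for all positions below), a member of the Cyp2c family of drug and fatty acid oxidases, measured 8.60, 7.84, 6.21, 7.28 and 7.89 CPM in WT GFP-high libraries. In WT GFP-low libraries it measured 37.5, 63.5, 43.4, 39.3 and 52.6 CPM. All 5 GFP-low values stood above all 5 GFP-high values, a log2 fold change of 2.64 ± 0.16 (standard error, SE; edgeR adjusted p = 3.09e-07). In KO mice the libraries held 5.38, 6.04, 6.19, 7.97 and 3.68 CPM in GFP-high and 27.7, 37.6, 49.4, 34.3 and 35.0 CPM in GFP-low cells, again without overlap, a rise of 2.67 ± 0.20. Cyp2c65, chr19:39061015-39093944, plus strand, stood at 10.8, 14.1, 13.7, 15.3 and 10.1 CPM in WT GFP-high and 38.2, 42.8, 42.4, 41.4 and 29.9 CPM in WT GFP-low libraries. In KO mice it stood at 16.6, 11.1, 15.02, 14.9 and 14.8 CPM (GFP-high) and 35.2, 32.4, 37.95, 27.5 and 33.0 CPM (GFP-low). The populations did not overlap in either genotype, and its log2 fold change was 1.60 ± 0.14 in WT and 1.21 ± 0.12 in KO mice.

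Cyp3a13, of the Cyp3a family that oxidises many drugs and steroids (chr5:137892932-137921619, minus strand), measured 3.90, 3.99, 5.85, 6.75 and 3.81 CPM in WT GFP-high libraries and 23.7, 37.2, 49.3, 38.2 and 26.4 CPM in WT GFP-low libraries. KO libraries held 5.63, 3.19, 3.65, 4.64 and 2.04 CPM (GFP-high) and 29.1, 24.2, 33.8, 17.8 and 20.8 CPM (GFP-low). Every GFP-low library lay far above every GFP-high library of its genotype, and the log2 fold change was 2.84 ± 0.23 in WT and 2.73 ± 0.25 in KO mice (edgeR adjusted p = 2.81e-06 and 1.12e-06). Other rises in WT mice were those of Cyp4f14, which hydroxylates fatty acids and leukotrienes (3.80 ± 0.44), Cyp2c66 (3.23 ± 0.47), Cyp3a25 (3.02 ± 0.38), Cyp4f40 (2.52 ± 0.23), Cyp2d26 (2.09 ± 0.19) and Cyp2u1 (1.92 ± 0.21). Cyp2c66 had a count of 0 in the GFP-high library of WT mouse 1, which allows up to 0.127 CPM (3 counts). Smaller rises were found for Cyp4f13 (1.36 ± 0.48), Cyp4b1 (1.31 ± 0.23), Cyp2s1 (0.91 ± 0.13), Cyp4f16 (0.83 ± 0.14) and Cyp2j6 (0.77 ± 0.13). Reads that fit more than 1 gene are divided by estimation, so members with close kin are less certain: of the 50-base words of the annotated transcripts, 43.3% of those of Cyp2c68, 26.2% of Cyp3a25, 26.0% of Cyp4f16, 24.0% of Cyp2c66 and 20.6% of Cyp2c65 also occur in other genes. The WT call of Cyp4f13 (edgeR adjusted p = 0.0346) was lost when mouse 1, 3 or 7 was left out of the GFP-high libraries (0.0725, 0.0693 and 0.0710) or mouse 6 or 8 out of the GFP-low libraries (0.0912 and 0.0972).

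Cyp2e1, which oxidises ethanol and other small molecules (chr7:140763739-140774987, plus strand), was the P450 that fell most. It measured 15.9, 15.02, 19.5, 14.3 and 13.2 CPM in WT GFP-high and 1.08, 5.25, 2.35, 1.16 and 1.27 CPM in WT GFP-low libraries. In KO mice it measured 11.4, 16.3, 16.9, 12.9 and 13.2 CPM in GFP-high and 0.852, 2.57, 1.52, 0.722 and 0.524 CPM in GFP-low libraries. Every GFP-high library of either genotype exceeded every GFP-low library, and mouse 3 was the highest GFP-low library in each genotype. The log2 fold change was -2.83 ± 0.38 in WT and -3.51 ± 0.33 in KO mice (edgeR adjusted p = 9.11e-05 and 1.62e-06). Cyp39a1, an oxysterol hydroxylase of bile acid synthesis (chr17:43667425-43751431, plus strand), fell from 11.1, 16.6, 14.5, 19.4 and 11.4 CPM to 7.67, 8.06, 8.43, 10.6 and 5.55 CPM in WT mice. In KO mice it measured 13.6, 20.2, 17.3, 16.0 and 17.4 CPM (GFP-high) and 6.46, 8.66, 9.80, 6.05 and 9.40 CPM (GFP-low). The populations did not overlap, with log2 fold changes of -0.86 ± 0.20 in WT and -1.06 ± 0.16 in KO mice. Cyp4f15, a fatty acid hydroxylase, fell from 2.33, 3.74, 5.17, 3.96 and 5.02 CPM to 1.60, 1.40, 1.95, 2.86 and 0.543 CPM in WT mice (-1.26 ± 0.35), with overlapping ranges. KO libraries held 1.21, 3.02, 1.23, 2.77 and 5.14 CPM (GFP-high) and 2.02, 2.25, 1.36, 0.802 and 1.40 CPM (GFP-low), and its value of -0.77 ± 0.40 did not pass (edgeR adjusted p = 0.125). Cyp4v3, another fatty acid hydroxylase, fell in KO mice (-0.58 ± 0.15; -0.21 ± 0.12 in WT, not passing). The difference between genotypes passed for neither (edgeR interaction, adjusted p = 1 for each). The P450s that passed in neither genotype were Cyp20a1, Cyp27a1, Cyp2c55, Cyp2j9 and Cyp4x1. Cyp2c55 passed in WT mice once mouse 7 was left out of the GFP-high libraries, or mouse 6 or 8 out of the GFP-low libraries (edgeR adjusted p = 0.0366, 0.0476 and 0.0463). Cyp2j9 passed in KO mice with the mouse as a block (0.59, edgeR adjusted p = 0.0281), and once mouse 3 was left out of the GFP-high (0.0459) or mouse 2 out of the GFP-low libraries (0.0262), and in the fit over all libraries (0.62, edgeR adjusted p = 0.0407).

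**Figure D2:**
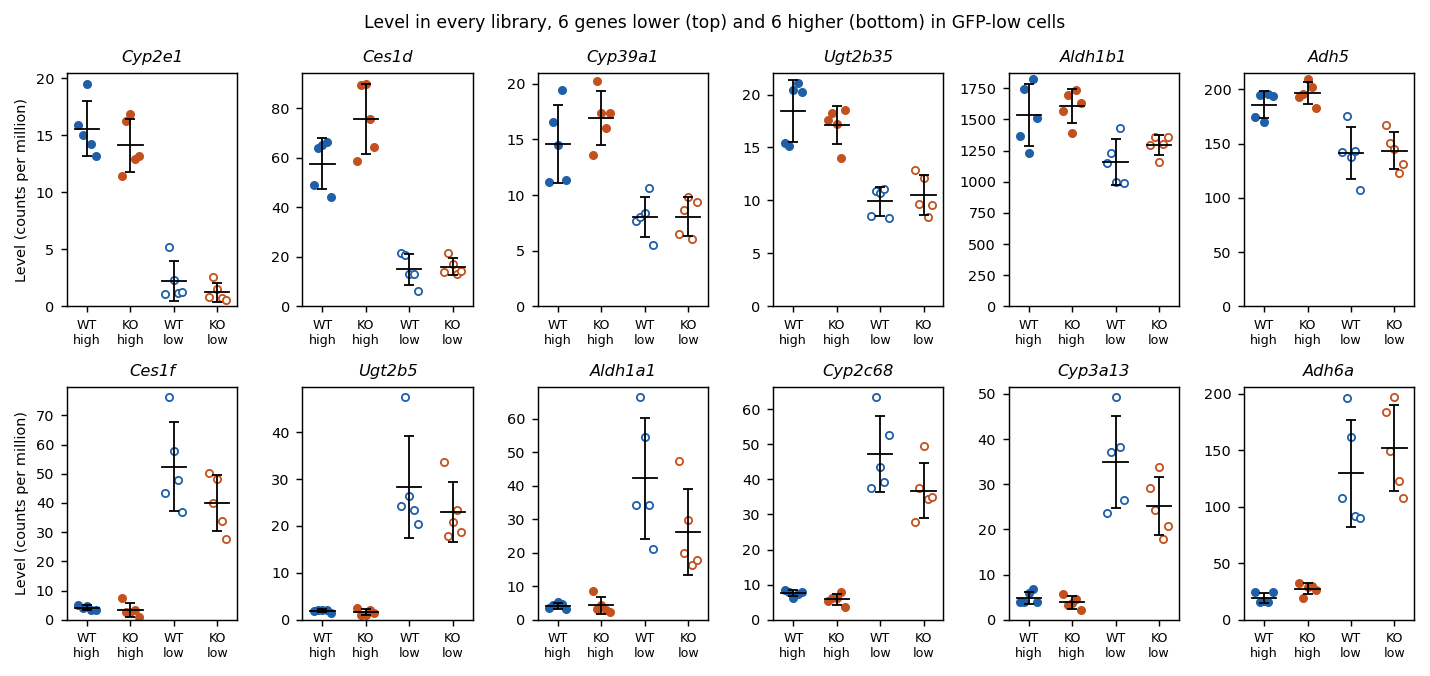
Level in CPM (y axis, linear from 0) in each of the 20 libraries for 6 members lower and 6 members higher in GFP-low cells; points are libraries (filled GFP-high, open GFP-low), bars the mean ± SD of 5. Cyp2e1 lies between 11.4 and 19.5 in GFP-high and between 0.524 and 5.25 in GFP-low libraries, and Ces1f between 1.03 and 7.39 and between 27.5 and 76.2.

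Of the 9 UDP-glucuronosyltransferases, 7 rose and 1 fell in WT mice and 8 rose and 1 fell in KO mice. Ugt2b5, of the family that conjugates steroids and many drugs, had the largest log2 fold change of all members in WT mice, and 41.7% of its 50-base words also occur in other genes. Its WT GFP-high libraries held 1.86, 2.02, 2.00, 2.16 and 1.37 CPM and its WT GFP-low libraries 24.2, 47.4, 26.4, 23.4 and 20.4 CPM. In KO mice they held 2.49, 0.965, 0.966, 2.02 and 1.45 CPM (GFP-high) and 33.7, 17.9, 20.8, 23.5 and 18.7 CPM (GFP-low). WT mouse 3 stood above the other GFP-low libraries, and no GFP-high library came near them. The log2 fold change was 3.91 ± 0.25 in WT and 3.86 ± 0.27 in KO mice (edgeR adjusted p = 3.62e-07 and 1.37e-07). The summed level of the 13 enterocyte markers held by both tables was also highest in mouse 3 among the WT GFP-low libraries, at 6126 CPM against 3181 to 4937 CPM in the others. That library held the highest sum of the 13 Paneth markers too, at 276100 CPM against 62970 to 268600 CPM. The part of either sum in the result was not tested. Ugt2a3 rose from 13.9, 16.4, 11.3, 13.9 and 11.9 CPM to 42.8, 85.6, 59.8, 54.3 and 42.4 CPM in WT mice and from 14.3, 13.5, 14.9, 10.5 and 10.4 CPM to 59.2, 45.3, 52.5, 29.0 and 37.9 CPM in KO mice, without overlap (2.08 ± 0.19 in WT, 1.83 ± 0.18 in KO mice).

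The Ugt1a genes share their last exons, so their reads are divided by estimation: of their 50-base words, 96.0% of those of Ugt1a6a, 62.0% of Ugt1a9, 58.2% of Ugt1a1 and 54.2% of Ugt1a7c also occur in other genes. Their single values are uncertain for that reason. As given, Ugt1a7c rose from 19.3, 33.3, 22.0, 33.6 and 19.5 CPM to 61.7, 79.0, 64.9, 81.5 and 48.7 CPM in WT mice (1.39 ± 0.20) and from 22.6, 27.4, 22.0, 23.8 and 26.1 CPM to 79.0, 73.5, 64.3, 50.4 and 54.4 CPM in KO mice (1.41 ± 0.13), without overlap. Ugt1a1, the enzyme that conjugates bilirubin, rose by 1.34 ± 0.22 and Ugt1a6a by 0.30 ± 0.09, a direction that the scaling by library totals turns in WT mice. Ugt1a9 was at 0 counts in the GFP-high libraries of WT mice 6 and 8, which allows up to 0.120 and 0.118 CPM. Its WT value of 1.84 ± 0.82 did not pass (edgeR adjusted p = 0.0866) but passed with the mouse as a block (2.07, edgeR adjusted p = 0.0417), and without the GFP-high library of mouse 1 (0.0471). It passed in KO mice (1.44 ± 0.57, edgeR adjusted p = 0.0477), but not in DESeq2 (0.0838), in the fit over all libraries (0.119) or with library totals alone (0.0779), nor without any 1 library other than the GFP-high ones of mice 2 and 6 and the GFP-low one of mouse 5 (0.0582 to 0.102).

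Ugt2b35 went the other way from its neighbours. Its WT GFP-high libraries held 15.4, 15.2, 20.4, 21.1 and 20.2 CPM and its WT GFP-low libraries 8.52, 10.9, 10.7, 11.1 and 8.39 CPM. In KO mice they held 17.6, 18.2, 17.3, 14.0 and 18.5 CPM (GFP-high) and 12.9, 9.62, 12.2, 8.42 and 9.61 CPM (GFP-low). The ranges were apart, with log2 fold changes of -0.90 ± 0.14 in WT and -0.69 ± 0.14 in KO mice (edgeR adjusted p = 0.000349 and 0.000817). Ugt2b34 and Ugt2b36, on either side of it, rose in WT mice by 0.66 ± 0.10 and 1.24 ± 0.23.

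Of the 4 sulfotransferases held by both tables, 3 rose in each genotype. Sult2b1, which sulfates cholesterol and other sterols (chr7:45729983-45784669, minus strand), stood at 6.44, 4.87, 8.05, 7.22 and 8.36 CPM in WT GFP-high and 16.99, 22.8, 32.5, 18.5 and 20.5 CPM in WT GFP-low libraries. Sult1b1, which acts on phenols and thyroid hormones, stood at 14.9, 20.9, 16.7, 20.6 and 14.3 CPM (GFP-high) and 34.2, 77.5, 58.9, 57.1 and 34.8 CPM (GFP-low). Sult1d1, which acts on catecholamines, stood at 18.9, 27.4, 28.4, 24.5 and 24.1 CPM (GFP-high) and 37.3, 82.5, 64.6, 53.4 and 48.7 CPM (GFP-low). None of these pairs of ranges overlapped. KO libraries held 7.92, 6.71, 5.09, 6.58 and 6.04 CPM (GFP-high) and 20.9, 12.2, 12.7, 18.6 and 15.3 CPM (GFP-low) of Sult2b1. They held 21.1, 16.9, 15.9, 15.6 and 17.6 CPM (GFP-high) and 60.1, 29.7, 37.4, 39.2 and 39.2 CPM (GFP-low) of Sult1b1. For Sult1d1 they held 28.6, 25.9, 24.1, 21.1 and 20.2 CPM (GFP-high) and 68.0, 52.1, 58.8, 42.5 and 44.3 CPM (GFP-low), and the populations were apart for all 3 genes. The log2 fold changes were 1.67 ± 0.20, 1.59 ± 0.22 and 1.22 ± 0.19 in WT and 1.32 ± 0.17, 1.25 ± 0.16 and 1.16 ± 0.14 in KO mice. Sult1c2 did not pass (-0.05 ± 0.22 in WT and 0.10 ± 0.22 in KO mice; 95% interval -0.52 to 0.42 in WT).

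Of the alcohol dehydrogenases, Adh1 and Adh6a rose and Adh5 fell in both genotypes. Adh6a measured 24.3, 15.6, 16.5, 16.1 and 24.5 CPM in WT GFP-high and 108, 196, 161, 92.0 and 89.8 CPM in WT GFP-low libraries. The KO values were 32.9, 19.6, 29.0, 29.4 and 26.5 CPM (GFP-high) and 184, 149, 197, 123 and 107 CPM (GFP-low). All GFP-low libraries lay far above the GFP-high ones, and the log2 fold change was 2.74 ± 0.24 in WT and 2.48 ± 0.18 in KO mice. Adh1, which oxidises ethanol and retinol, rose from 264, 239, 207, 159 and 294 CPM to 512, 798, 715, 485 and 445 CPM in WT mice and from 188, 321, 388, 267 and 249 CPM to 543, 613, 689, 436 and 429 CPM in KO mice, without overlap (1.35 ± 0.20 and 0.95 ± 0.18). Adh5, the glutathione-dependent enzyme that removes formaldehyde, measured 175, 195, 169.9, 196 and 194 CPM in WT GFP-high and 143, 176, 138, 143 and 107 CPM in WT GFP-low libraries. In KO mice it measured 193, 196, 209.8, 203 and 183 CPM (GFP-high) and 167, 150.2, 145, 123 and 131 CPM (GFP-low), with ranges apart. Mouse 3 alone among WT GFP-low libraries reached the GFP-high range, and the log2 fold change was -0.39 ± 0.12 in WT and -0.44 ± 0.09 in KO mice (edgeR adjusted p = 0.0167 and 0.00106).

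Of 14 aldehyde dehydrogenases, 7 rose, 4 fell and 3 did not pass in WT mice, and 7, 3 and 4 in KO mice. In WT mice 50% rose and 28.6% fell, beside 22.0% and 21.4% of all genes. In KO mice 50% rose and 21.4% fell, beside 26.2% and 24.4% of all genes. The share that fell was thus near that of all genes. Aldh1a1, a retinaldehyde dehydrogenase that makes retinoic acid, measured 3.39, 4.36, 5.17, 4.69 and 3.22 CPM in WT GFP-high and 34.4, 66.3, 54.5, 34.4 and 21.2 CPM in WT GFP-low libraries. KO libraries held 8.64, 3.06, 4.52, 2.96 and 2.29 CPM (GFP-high) and 47.2, 20.0, 29.6, 16.3 and 17.7 CPM (GFP-low). Every GFP-low library exceeded every GFP-high library, and KO mouse 2 was the highest in both populations of its genotype. The log2 fold change was 3.34 ± 0.29 in WT and 2.62 ± 0.37 in KO mice (edgeR adjusted p = 3.76e-06 and 5.53e-05). KO mouse 2 also held the highest sum of enterocyte markers among KO GFP-low libraries, at 4254 CPM against 2587 to 3507 CPM. It held the lowest sums of Paneth markers (26280 against 92160 to 131800 CPM) and goblet markers (26710 against 40350 to 58870 CPM). The part of these sums in the result was not tested. Aldh3b2 rose from 1.02, 1.87, 1.16, 0.665 and 2.12 CPM to 10.1, 5.80, 4.75, 6.98 and 9.60 CPM and its neighbour Aldh3b1 from 5.80, 6.08, 2.52, 3.13 and 4.63 CPM to 14.4, 13.2, 12.2, 12.9 and 14.8 CPM in WT mice (2.44 ± 0.33 and 1.61 ± 0.22). Both act on fatty aldehydes, and 24.2% of the 50-base words of Aldh3b2 occur in other genes. In KO mice they measured 0.241, 1.47, 0.878, 2.58 and 1.81 CPM (GFP-high) and 4.67, 8.71, 8.81, 13.2 and 7.74 CPM (GFP-low) for Aldh3b2, and 5.63, 6.71, 4.17, 5.76 and 3.91 CPM (GFP-high) and 10.3, 14.3, 14.9, 13.6 and 14.0 CPM (GFP-low) for Aldh3b1. The populations did not overlap for either gene. Aldh1a7 (1.71 ± 0.30), the folate enzyme Aldh1l1 (0.79 ± 0.13), Aldh9a1 (0.50 ± 0.12) and Aldh3a2 (0.34 ± 0.11) made up the other WT rises. Aldh3a2 changes sign when library totals alone set the scale, and its call did not outlast the removal of either library of mouse 8 (edgeR adjusted p = 0.0530 and 0.0516). In KO mice it passed only with the mouse as a block (0.23, edgeR adjusted p = 0.0486) or without the GFP-low library of mouse 2 (0.0434).

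The falling aldehyde dehydrogenases were Aldh5a1, Aldh7a1 and Aldh1b1 in both genotypes and Aldh6a1 in WT mice alone. Aldh5a1, which oxidises succinic semialdehyde from GABA (chr13:24907579-24937661, minus strand), fell from 22.0, 18.1, 20.5, 23.6 and 24.4 CPM to 10.7, 12.9, 14.2, 15.4 and 13.6 CPM in WT mice, and from 22.5, 23.3, 29.3, 20.0 and 22.1 CPM to 19.3, 14.1, 14.0, 15.9 and 14.7 CPM in KO mice, with ranges apart (-0.70 ± 0.13 and -0.57 ± 0.13). Aldh7a1, of lysine breakdown, fell from 22.6, 20.8, 19.5, 26.0 and 18.2 CPM to 17.5, 15.4, 11.8, 19.6 and 13.6 CPM in WT mice, with overlapping ranges (-0.46 ± 0.15). In KO mice it fell from 21.5, 23.1, 23.6, 21.4 and 25.1 CPM to 13.73, 16.5, 16.0, 15.5 and 15.3 CPM, with ranges apart (-0.56 ± 0.10). Aldh1b1, a mitochondrial enzyme that oxidises acetaldehyde and retinaldehyde (chr4:45799022-45804604, plus strand), measured 1369, 1745, 1233, 1828 and 1513 CPM in WT GFP-high libraries. In WT GFP-low libraries it measured 1149, 1227, 1000.1, 1435 and 992 CPM. KO libraries held 1566, 1699, 1394, 1739 and 1632 CPM (GFP-high) and 1295, 1359, 1156, 1306 and 1357 CPM (GFP-low). The ranges overlapped in WT and were apart in KO mice. The log2 fold change was -0.41 ± 0.14 in WT and -0.30 ± 0.09 in KO mice (edgeR adjusted p = 0.0363 and 0.0133). Its WT call was lost when mouse 3, 7 or 8 was left out of the GFP-high libraries (0.0803, 0.0901 and 0.0577) or mouse 1, 6 or 8 out of the GFP-low libraries (0.0632, 0.0820 and 0.0812). That of Aldh7a1 (edgeR adjusted p = 0.0265) was lost when mouse 1 or 7 was left out of the GFP-high libraries (0.0552 and 0.0739) or mouse 6 or 8 out of the GFP-low libraries (0.0620 and 0.0614). Aldh6a1, of valine breakdown, passed narrowly in WT mice (-0.41 ± 0.16, edgeR adjusted p = 0.0488). Its call was lost with RLE size factors (0.0529) and without any 1 library other than the GFP-low one of mouse 8 (0.0514 to 0.112), and its KO value of -0.09 ± 0.17 did not pass.

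Carboxylesterases rose in 6 of 8 cases in each genotype, and 1 fell. Ces1f, a lipid and drug ester hydrolase, measured 5.00, 3.85, 4.81, 3.43 and 3.26 CPM in WT GFP-high and 43.4, 76.2, 57.8, 48.0 and 36.8 CPM in WT GFP-low libraries. The KO values were 7.39, 2.68, 2.59, 3.44 and 1.03 CPM (GFP-high) and 50.4, 40.1, 48.3, 33.8 and 27.5 CPM (GFP-low). The populations were far apart in both genotypes, with log2 fold changes of 3.69 ± 0.21 and 3.57 ± 0.37 (edgeR adjusted p = 1.9e-07 and 3.42e-06). Ces1d, known as a triacylglycerol hydrolase, was the exception. Its WT GFP-high libraries held 48.9, 64.1, 65.1, 66.5 and 44.1 CPM and its WT GFP-low libraries 21.5, 20.6, 13.1, 13.1 and 6.398 CPM. In KO mice the values were 58.7, 89.6, 90.03, 75.5 and 64.4 CPM in GFP-high and 13.8, 21.5, 17.1, 13.1 and 14.3 CPM in GFP-low libraries. No GFP-low library of either genotype reached the lowest GFP-high library, with log2 fold changes of -1.95 ± 0.27 in WT and -2.23 ± 0.16 in KO mice (edgeR adjusted p = 0.000112 and 2.07e-07).

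All 4 tested Ces2 genes rose in both genotypes. Ces2e stood at 53.2, 74.5, 71.5, 104 and 77.9 CPM in WT GFP-high and 267, 499, 416, 442 and 263 CPM in WT GFP-low libraries (2.31 ± 0.22). Ces2c, which cuts diacylglycerol, stood at 23.3, 28.1, 39.9, 36.0 and 35.6 CPM (GFP-high) and 107, 146, 147, 112 and 75.2 CPM (GFP-low) (1.85 ± 0.19). In KO mice Ces2e stood at 81.9, 60.5, 60.6, 63.5 and 52.6 CPM (GFP-high) and 377, 279, 291, 245 and 227 CPM (GFP-low) (2.17 ± 0.15), and Ces2c at 32.2, 23.2, 28.2, 26.4 and 20.5 CPM (GFP-high) and 97.7, 83.4, 101, 65.7 and 71.8 CPM (GFP-low) (1.70 ± 0.15). The populations did not overlap for either gene, and Ces2a (1.37 ± 0.23) and Ces2g (0.97 ± 0.18) moved the same way. Of the 50-base words of Ces2c, 42.2% also occur in other genes, so its reads too are divided by estimation.

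Many members lie in clusters of related genes, and the direction was not always shared within one. With members joined where less than 1000 kb separates them, 55 of the 75 fell into 15 clusters. In the Ces2 cluster (chr8:104734003-104969537) all 4 tested genes rose, and in the Ugt1a cluster (chr1:88070800-88220002) 3 of 4 rose in WT mice. The Ces1 cluster (chr8:93056728-93337308) held the opposite calls of Ces1d and Ces1f, whose starts lie 109.3 and 199.5 kb from the first start of the cluster, with Ces1e between them at 0.63 ± 0.14. On chr5:86889767-87569027, 6 of 7 members rose and Ugt2b35 fell. On chr17:32536558-32947402, Cyp4f15 fell in WT mice while Cyp4f40 beside it rose by 2.52 ± 0.23 and the 3 other Cyp4f members rose too. In the Adh cluster (chr3:138217760-138455499) Adh1 and Adh6a rose and Adh5 fell. The Cyp2c cluster (chr19:39007019-40588463, which by this distance takes in Aldh18a1) held 3 rises of 5 tested in WT mice and no fall.

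**Figure D3:**
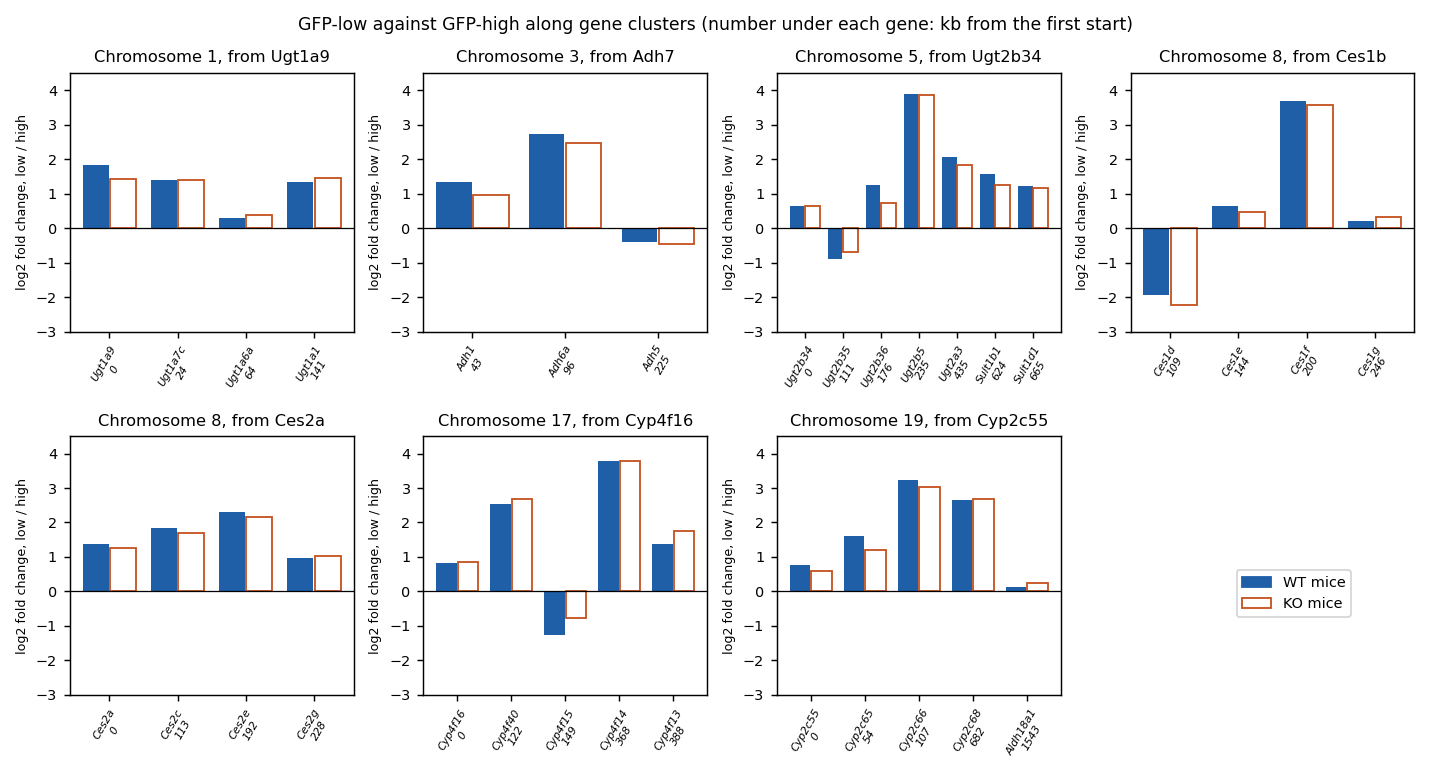
Log2 fold change between GFP-low and GFP-high cells (y axis, bars from 0; blue WT, outlined KO) for members of the 7 clusters with 4 or more members, in chromosome order, with the distance of each start from the first start of the cluster in kb under the name. Ces1d (-1.95 in WT mice), Ugt2b35 (-0.90), Cyp4f15 (-1.26) and Adh5 (-0.39) point down beside neighbours that point up. Ugt1a6a, at 0.30, changes sign in WT mice when library totals alone set the scale.

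Per kb of merged exon, Aldh1b1 was the most abundant member in every group. In CPM per kb of merged exon it stood at 669 ± 109 (SD, n = 5) in WT GFP-high, 699 ± 59.0 in KO GFP-high, 505 ± 79.6 in WT GFP-low and 564 ± 36.0 in KO GFP-low libraries, above the range of the second member, Adh1, in each. Adh1 stood at 104 ± 23.4 and 127 ± 33.9 CPM per kb in WT and KO GFP-high libraries and at 265 ± 69.6 and 243 ± 50.4 CPM per kb in GFP-low libraries. In GFP-high libraries Aldh9a1 came next, at 68.8 ± 8.79 CPM per kb in WT and 63.6 ± 3.58 CPM per kb in KO mice. The ranges of Adh1 and Aldh9a1 overlapped in WT and not in KO mice. In GFP-low libraries Ces2e followed Adh1, at 140 ± 39.7 and 105 ± 21.5 CPM per kb, and its range overlapped that of Aldh9a1 in both genotypes. These ranks hold for merged exons and may differ per length of transcript. Adh5, for one, has 5408 bases of merged exon but 1 coding transcript with 1555 words of 50 bases. Summed in CPM over the members of a class in both tables, the 14 aldehyde dehydrogenases had a median of 2144 in WT GFP-high and 1966 in WT GFP-low libraries, with overlapping ranges. Aldh1b1, which fell, made up most of this sum, with means of 1538 and 1161 CPM, so it does not describe the class as a whole. The 23 P450s went from 263 to 606 CPM and the 8 carboxylesterases from 291 to 917 CPM, both without overlap.

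Genes that serve these enzymes were counted from lists of the pathway. Of all genes, 22.0% rose and 21.4% fell in WT mice, and 26.2% rose and 24.4% fell in KO mice. Of 10 electron donors and haem genes, 7 rose and 1 fell in WT mice (7 and 2 in KO), with the smallest p for the cytochrome b5 partners Cyb5r3 (1.09 ± 0.14) and Cyb5b (0.79 ± 0.10), while Cyb5r1 fell (-0.32 ± 0.12). Of 10 genes that supply UDP-glucuronate and the sulfate donor PAPS, 8 rose and none fell in each genotype. Papss2, which makes PAPS, rose by 4.22 ± 0.21 on the log2 scale and the sulfate carrier Slc26a2 by 1.15 ± 0.13. Of 10 efflux and organic anion transporters 8 rose in each genotype, with the bile acid exporter subunit Slc51a at 3.49 ± 0.22 and Slc22a18 at 1.64 ± 0.12. None of them fell in WT mice and Abcc1 fell in KO mice.

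Other oxidising and hydrolysing enzymes rose in 13 of 17 cases and fell in 1 in WT mice (14 and 1 in KO). Fmo5, a flavin monooxygenase, stood at 2.09 ± 0.14, Akr1c19 at 2.10 ± 0.18, and the epoxide hydrolase Ephx1 at -0.78 ± 0.15. Of 8 other conjugating enzymes 3 rose in each genotype and none fell, with Mgst3 at 1.14 ± 0.14 and Tst at 0.70 ± 0.16. Of 20 receptors and factors that regulate the system, 7 rose and 3 fell in WT mice, and 10 rose and 2 fell in KO mice. All counts here stand beside 22.0% of all genes higher and 21.4% lower in WT, and 26.2% and 24.4% in KO mice. Hnf4g rose by 2.15 ± 0.21 and the xenobiotic receptor CAR (Nr1i3) by 2.05 ± 0.27, while the vitamin D receptor Vdr (-1.12 ± 0.13) and Rxrb (-0.57 ± 0.12) fell. The other HNF4 gene listed, Hnf4a, fell in WT mice (-0.31 ± 0.09, edgeR adjusted p = 0.0161). It did not pass in KO mice (-0.13 ± 0.10, edgeR adjusted p = 0.321). Of 16 retinoid genes 7 rose and 2 fell in each genotype, with the retinol carrier Rbp2, which is also on the enterocyte list, at 4.53 ± 0.25, Dgat1 at 1.21 ± 0.15, Dhrs4 at -0.80 ± 0.14 and Lrat at -0.42 ± 0.15. Enterocyte markers had a median of 2.02 in WT and 1.72 in KO mice in the same comparison. Goblet (2.00 to 4.38), Paneth (1.52 to 3.21), enteroendocrine (1.68 to 3.09) and tuft cell markers (1.08 to 2.48) rose as well in WT mice. The part of any of these cell types in the members' rises was not tested.

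Between genotypes no member passed the test in either population. In GFP-high cells 0 of 64 members were called by edgeR (background 0% of 11745 genes), and 12 of 64 had an unadjusted p under 0.05 (18.8%, beside 9.79% of all genes). That count was 7 without KO mouse 3, 8 without WT mouse 8 or KO mouse 4, and 7 of 61 in the fit over all libraries. The members divided into 28 above and 36 below 0, with a median log2 fold change of -0.03 beside 0.0056 for all genes. For 53 of the 64 the 95% interval lay within a 2-fold change in either direction. DESeq2 called 145 genes, 2 of them members, both lower in KO: Cyp4b1 and Cyp4f13. Of the marker lists, no gene was called in this comparison, and the list medians were 0.99 for the 5 listed T cell and intraepithelial lymphocyte genes, -0.94 for 11 enteroendocrine, -0.89 for 8 tuft and -0.52 for 9 goblet cell markers. The part of these in the members' values was not tested.

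Cyp4b1, a fatty acid hydroxylase that also activates some toxins, had the smallest p. Its WT GFP-high libraries held 10.7, 7.48, 15.8, 11.6 and 9.03 CPM and its KO GFP-high libraries 7.84, 7.46, 5.01, 5.80 and 5.36 CPM. The highest KO library lay just above the lowest WT library, and the log2 fold change was -0.79 ± 0.20 (edgeR adjusted p = 0.187; DESeq2 0.0218). Cyp4f13 measured 3.60, 6.93, 10.8, 5.69 and 11.03 CPM in WT and 1.33, 3.90, 2.28, 3.14 and 6.01 CPM in KO libraries, with overlapping ranges (-1.18 ± 0.37; edgeR adjusted p = 0.274; DESeq2 0.0496). Aldh1l1 measured 18.3, 19.6, 17.8, 18.7 and 20.5 CPM in WT and 28.1, 28.1, 21.6, 24.3 and 20.6 CPM in KO libraries. It was the only member of 64 whose genotypes did not overlap in this population (1.56%, beside 1.86% of all genes), KO being higher (0.38 ± 0.11; edgeR adjusted p = 0.241).

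Adh6a and Ces1d were also higher in the KO libraries on average without passing. Adh6a stood at 32.9, 19.6, 29.0, 29.4 and 26.5 CPM in KO GFP-high libraries against the WT values given above (0.51 ± 0.17; edgeR adjusted p = 0.302), and Ces1d at 0.40 ± 0.15 (0.367). Ugt1a1 measured 33.3, 51.2, 54.5, 66.5 and 43.7 CPM in WT and 39.7, 32.7, 41.2, 40.1 and 33.3 CPM in KO libraries (-0.41 ± 0.15; edgeR adjusted p = 0.367). The ranges of these 3 genes overlapped between genotypes.

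In GFP-low cells 0 of 72 members were called, where edgeR called 1 of 11778 genes (0.00849%), Arhgef10, which is no member and is named because it was the only call. Of the members 14 had an unadjusted p under 0.05 (19.4%, beside 6.32% of all genes), and DESeq2 called 12 genes and no member. The count of 14 was not steady: it was 7 without KO mouse 3, 8 without WT mouse 3, KO mouse 5 or KO mouse 6, 23 without KO mouse 2, 6 with library totals alone and 7 of 61 in the fit over all libraries. Here 54 of 72 members lay below 0 (75%, beside 50.8% of all genes), with a median log2 fold change of -0.21 beside -0.0035 for all genes. Scaled by library totals alone, 41 of 72 lay below 0, with medians of -0.05 for the members and 0.14 for all genes. By class, 24 of 28 P450s, 8 of 10 carboxylesterases, 5 of 5 sulfotransferases, 6 of 9 UDP-glucuronosyltransferases, 3 of 5 alcohol dehydrogenases and 8 of 15 aldehyde dehydrogenases were below 0. The 15 enterocyte markers in the same comparison had a median of -0.48, none called, and summed to 3212 to 6176 CPM in WT and 2614 to 4308 CPM in KO GFP-low libraries. Other marker lists moved as well, with no gene called: the medians were -0.67 for 13 Paneth, -0.33 for 9 tuft and -0.30 for 10 stem cell markers, and 0.87 for the 4 listed T cell and intraepithelial lymphocyte genes. The 13 listed Paneth markers alone took 6.12% to 20.1% of the counts in WT and 2.80% to 12.0% in KO GFP-low libraries. Stem cell markers summed to 592 to 1106 CPM in WT and 659 to 1119 CPM in KO libraries, and the T cell genes to 4.02 to 52.9 CPM and 12.8 to 79.2 CPM. The part of these cell types in the members' values was not tested. For 55 of 72 members the 95% interval lay within a 2-fold change in either direction.

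Sult6b2, a sulfotransferase of little known function (chr6:142785204-142804502, minus strand), had the smallest p in GFP-low cells. WT libraries held 9.08, 6.96, 10.4, 7.43 and 13.8 CPM and KO libraries 3.90, 3.94, 9.17, 2.77 and 3.28 CPM. KO mouse 4 lay inside the WT range and the other KO libraries below it, with a log2 fold change of -1.06 ± 0.31 (edgeR adjusted p = 0.744). Ces2b measured 2.35, 3.36, 2.84, 2.91 and 2.29 CPM in WT and 1.84, 1.51, 2.15, 1.48 and 1.92 CPM in KO libraries, the only member of 72 whose genotypes did not overlap in GFP-low cells (1.39%, beside 1.12% of all genes; -0.63 ± 0.22; edgeR adjusted p = 0.744). Its cluster neighbours Ces2a and Ces2c had log2 fold changes of -0.53 ± 0.16 and -0.49 ± 0.18, with overlapping ranges.

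Ces2a measured 137, 167, 208, 247 and 203 CPM in WT and 139, 124, 171, 109.9 and 124 CPM in KO GFP-low libraries, and only KO mice 2 and 4 reached the WT range. Ces2c, whose values stand above, was lower than every WT library in KO mice 5 and 6 only. Cyp2c66 measured 8.09, 10.8, 8.78, 9.64 and 8.45 CPM in WT and 4.98, 6.37, 9.02, 3.65 and 5.42 CPM in KO GFP-low libraries, where only KO mouse 4 reached the WT range (-0.64 ± 0.21; edgeR adjusted p = 0.744). Cyp2b10, a drug oxidase known as a target of CAR, measured 15.5, 18.9, 6.83, 6.88 and 7.49 CPM in WT and 7.94, 4.12, 9.23, 3.61 and 4.24 CPM in KO libraries. WT mice 1 and 3 stood apart from the rest, and the log2 fold change was -0.93 ± 0.35 (edgeR adjusted p = 0.744). Aldh16a1 was the 1 member with an unadjusted p under 0.05 and a higher KO level (0.30 ± 0.13; edgeR adjusted p = 0.77).

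**Figure D4:**
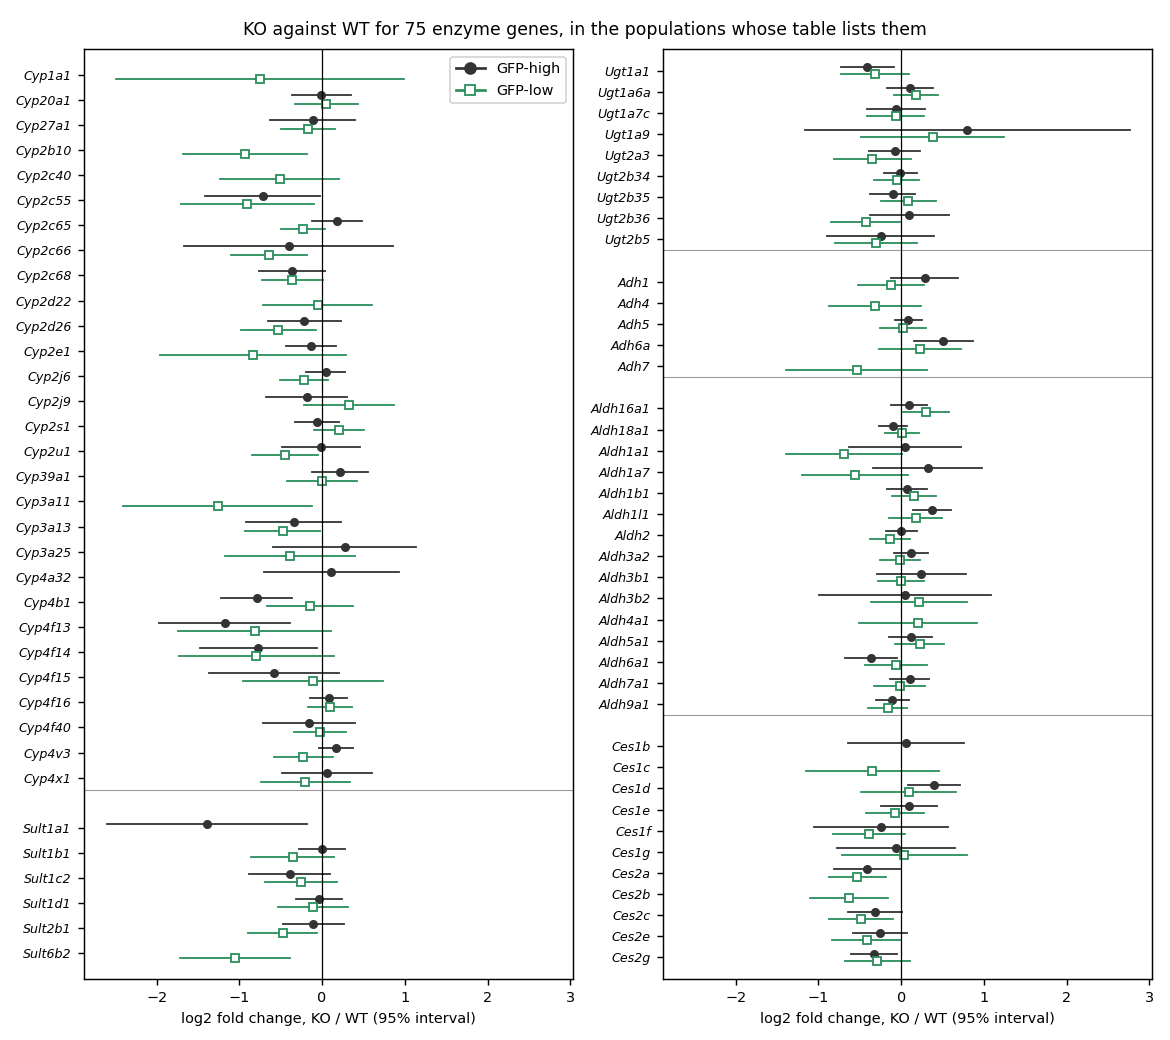
Log2 fold change between KO and WT mice (x axis) with its 95% interval for the 75 members, by class, in GFP-high cells (filled circles) and GFP-low cells (open squares); a member absent from a table has no point there. In GFP-low cells 54 of 72 points lie left of 0 (41 when library totals alone set the scale), and no point of either population passed the test.

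The KO effect did not pass as different between the populations for any of the 61 members (edgeR interaction, background 0% of 11284 genes; DESeq2 called 0 genes). In this fit Cyp2c65 alone of the members had an unadjusted p under 0.05, where 353 of all genes (3.13%) did. With the mouse as a block, which pairs the 2 libraries of each mouse, 5 of 61 members did (8.20%, beside 6.88% of all genes): Aldh1a1 (-0.62), Cyp2c65 (-0.41), Aldh1a7 (-0.93), Cyp4v3 (-0.42) and Cyp3a25 (-0.89), none passing (edgeR adjusted p = 0.670 to 0.705). Leaving out 1 library from the fit without the block gave 0 to 7 such members, the 7 without the GFP-low library of KO mouse 2. The GFP-high means of Cyp2c65 were 12.8 ± 2.22 CPM in WT and 14.5 ± 2.03 CPM in KO mice (SD, n = 5). Its GFP-low means were 38.9 ± 5.37 and 33.2 ± 3.85 CPM, an interaction without the block of -0.40 ± 0.19 (edgeR adjusted p = 1). Next by p in the fit without the block came Cyp4v3 (-0.39 ± 0.20), Cyp4b1 (0.65 ± 0.33) and Aldh1a7 (-0.87 ± 0.45). Cyp4b1 stood at 30.8, 16.2, 21.9, 32.0 and 33.8 CPM in WT and 18.6, 29.5, 36.7, 18.2 and 18.7 CPM in KO GFP-low libraries, with overlapping ranges. Cyp4v3 stood at 23.3, 26.8, 26.7, 30.6 and 22.5 CPM in WT and 29.8, 28.4, 29.8, 30.7 and 27.0 CPM in KO GFP-high libraries, and at 22.1, 23.6, 26.6, 21.5 and 18.8 CPM (WT) and 25.1, 20.99, 19.8, 12.4 and 18.1 CPM (KO) in GFP-low libraries. Aldh1a7, close kin of Aldh1a1, stood at 1.86, 2.60, 1.84, 4.66 and 3.30 CPM (WT) and 5.22, 3.52, 1.98, 2.88 and 4.20 CPM (KO) in GFP-high and at 7.86, 12.4, 10.3, 11.2 and 5.07 CPM (WT) and 10.5, 4.58, 8.18, 3.85 and 4.89 CPM (KO) in GFP-low libraries. The genotypes overlapped for both genes in both populations. With 5 mice a group these intervals are wide, and that of 44 of 61 members lay within a 2-fold difference.

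Some members varied widely among mice of 1 genotype. In GFP-low libraries the coefficient of variation within a group had a median of 25.1% over 72 members in WT and 21.6% in KO mice. Cyp1a1, the aryl hydrocarbon receptor target that oxidises polycyclic aromatic compounds (chr9:57687928-57703824, plus strand), had the highest in both, at 83.7% and 109%. It measured 3.86, 3.48, 2.26, 0.100 and 0.483 CPM in WT and 3.27, 1.83, 0.210, 0.281 and 0.481 CPM in KO GFP-low libraries. Mice 1, 3 and 6 of the WT group and 2 and 3 of the KO group were high, the other 5 low, and these levels rest on 2 to 82 counts a library. Cyp3a11, the main Cyp3a drug oxidase of mouse liver and gut, measured 42.4, 9.52, 16.4, 29.9 and 23.2 CPM in WT and 13.1, 6.32, 23.7, 1.88 and 5.90 CPM in KO libraries, a log2 fold change of -1.26 ± 0.53 (edgeR adjusted p = 0.766). The order of the mice was not the same as for Cyp1a1: WT mouse 3 was high for Cyp1a1 and the lowest WT mouse for Cyp3a11.

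Cyp4f13 and Cyp4f14, neighbours on chromosome 17, were both high in WT mice 6 and 8. Cyp4f14 measured 12.9, 17.6, 62.4, 19.2 and 43.6 CPM in WT and 35.9, 10.997, 10.3, 18.0 and 14.8 CPM in KO GFP-low libraries, and Cyp4f13 8.89, 5.07, 32.5, 15.9 and 35.4 CPM (WT) and 14.8, 9.16, 6.87, 12.0 and 12.8 CPM (KO). KO mouse 2 was the highest of its genotype for both. Of the 50-base words of Cyp4f13 and Cyp4f14, 2.56% and 2.39% also occur in other genes.

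**Figure D5:**
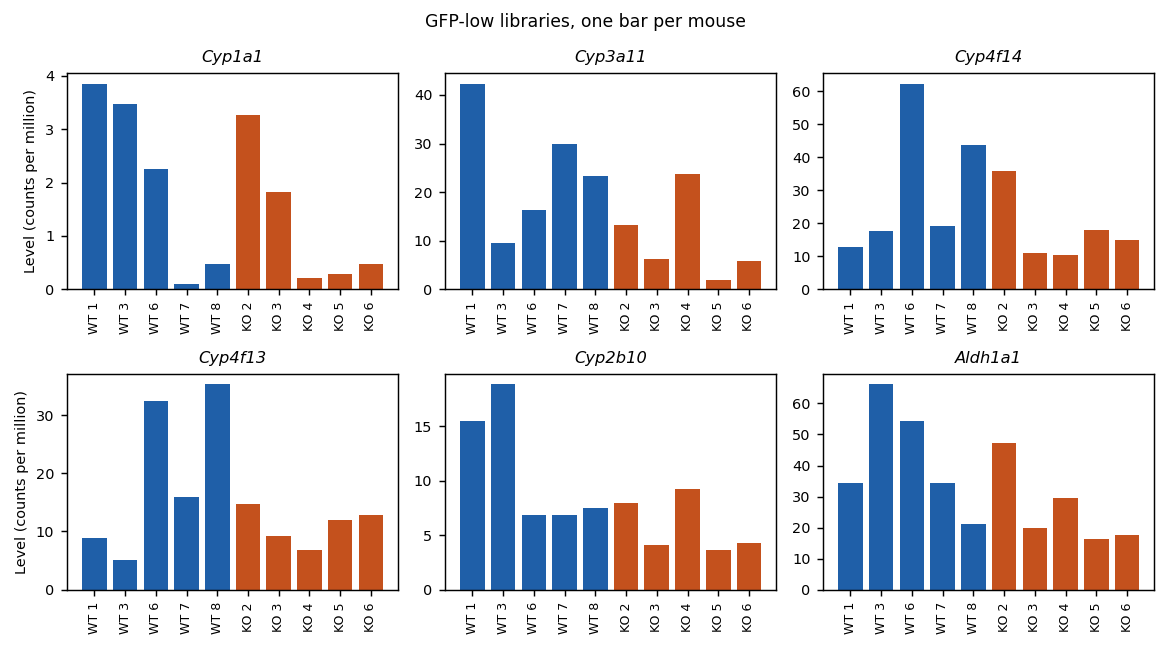
Level in CPM (y axis, bars from 0) of 6 members in each of the 10 GFP-low libraries, WT mice in blue and KO mice in orange. Cyp1a1 is highest in WT 1 (3.86) and KO 2 (3.27), Cyp3a11 in WT 1 (42.4), Cyp4f14 in WT 6 (62.4) and Cyp2b10 in WT 3 (18.9).

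Of the 11 members listed for GFP-low cells alone, the retinol and ethanol oxidising Adh4 measured 11.2 ± 4.32 CPM in WT and 9.01 ± 2.04 CPM in KO libraries, and Adh7 1.82 ± 0.817 and 1.26 ± 0.680 CPM. Ces1c stood at 6.26 ± 2.87 and 4.88 ± 1.80 CPM, Aldh4a1 at 2.47 ± 1.04 and 2.85 ± 1.04, Cyp2c40 at 1.85 ± 0.631 and 1.29 ± 0.499, and Cyp2d22 at 2.54 ± 1.07 and 2.45 ± 0.656 CPM. The 3 listed for GFP-high cells alone were low throughout: Cyp4a32 at 1.45 ± 0.676 and 1.56 ± 0.653 CPM, Ces1b at 1.16 ± 0.344 and 1.21 ± 0.471 CPM, and Sult1a1, which sulfates phenols, at 3.38 ± 2.50 and 1.27 ± 0.853 CPM. Sult1a1 was uneven among WT mice, at 0.636, 1.14, 4.41, 4.06 and 6.67 CPM. Shared words make up 70.2% for Cyp2c40, 46.8% for Cyp4a32 and 45.0% for Aldh4a1. No comparison of populations was made for these 14 genes, whose level in the other population is not analysed here.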

How the data were processed

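RNA of the sorted cells was made into libraries by standard Illumina steps, per the labels' protocols. The authors deposited 2 tables of expected counts, GFP-high (11746 entries) and GFP-low (11779). The submitters' processing notes name TopHat2, Bowtie2, RSEM and mm10, without roles; the sources used here give neither versions nor strand. RSEM divides reads shared by similar genes, and 13.65% and 13.68% of the values are not whole. The lowest row mean is 17.04 and 16.8 counts, so the tables hold no gene below that.

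Counts were rounded and tested with edgeR 4.0.16 (R 4.3.3; quasi-likelihood test, TMM factors, filterByExpr with a minimum count of 10, Benjamini-Hochberg adjustment over all genes of the fit, threshold 0.05). Rows are named by symbol alone; 16 and 17 symbols had been turned into dates, none a member. KO was compared with WT within each table, and GFP-low with GFP-high over the 11284 genes held by both, as was the interaction. For these the tables were joined by symbol. CPM use 1 set of TMM library sizes over all 20 libraries. Values per kb use the merged exon length of GENCODE M21. Standard errors are those of the log2 fold change, and intervals are 95%. A count of 0 is given with a floor of 3 counts, which covers counting error only.

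GFP-high and GFP-low libraries of 1 number within a genotype carry the same mouse number in the labels, and each correlated best with its own number (r of deviations 0.17 to 0.63). A fit with the mouse as a block is given where it changed a call. Numbers 3 and 6 occur in both genotypes for different mice. Alternatives were RLE size factors, library totals alone, DESeq2 1.42.0, no filter, a replicate block, 1 fit over all libraries, and leaving out each library. The tests were checked on simulated counts, drawn independently for each library, unlike the correlated libraries of 1 mouse. Between genotypes they recovered 10% of 1.3-fold, 60% of 1.5-fold and 94% of 2-fold changes in GFP-high cells. In GFP-low cells they recovered 6%, 38% and 90%. Small KO effects could thus be missed.

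Members and lists were chosen with earlier results of these data known. Values in every library are given, by rule, for the up to 3 rising and 3 falling members of each class with the smallest p in WT mice, the 6 with the smallest p between genotypes in each population, and the 4 with the smallest interaction p; other members may be named. Outside the members, up to 2 rising and 2 falling genes of each pathway list are named by the same p. Hnf4a is named besides, because letters known for HNF4 were searched.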

Additional observations from a re-analysis of the deposited data

Results flagged for a closer look

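Within groups of 5 libraries, 1 library stood apart from the other 4 (Dixon's ratio above 0.71) in 11 of 272 combinations of member and group. Chance gives about 1 in 20, and the count was not above that. Levels below are in CPM. Among GFP-low libraries, WT mouse 3 was lowest for Aldh3a2 (32.2) and highest for Ugt2b5 (47.4). KO mouse 2 was lowest for Aldh3b1 (10.3) and highest for Cyp4f40 (48.3), and KO mouse 4 was highest for Sult6b2 (9.17). Among GFP-high libraries the highest were WT mouse 3 for Ces1b (1.76), WT mouse 6 for Ces1g (2.24), WT mouse 7 for Cyp4f16 (40.4) and KO mouse 2 for Cyp2d26 (12.9). The lowest were WT mouse 1 for Cyp2c66 (0) and KO mouse 5 for Ugt2b35 (14.0). WT mouse 3 and KO mouse 2 also held the highest sum of enterocyte markers among the GFP-low libraries of their genotypes. For Paneth markers the sum was highest in WT mouse 3 and lowest in KO mouse 2. The part of these sums in the values was not tested.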

How the results depend on the processing

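For the genes given in every library, 1107 values under other settings kept direction and side of the threshold, 10 lost the call, 4 gained it and none reversed. Outside these, the called members Aldh3a2 and Ugt1a6a changed sign in WT mice with library totals alone (-0.0091 and -0.049). Members without a call changed sign too. With totals alone 22 of 61 members lay below 0 in WT mice, beside 14 with TMM, and 18 beside 14 in KO mice. Between genotypes in GFP-high cells, where edgeR called 0 genes, DESeq2 called 145, of which 2 members were lower. In GFP-low cells, where edgeR called 1 gene, DESeq2 called 12. With the mouse number as a replicate block, 122 genes were called in GFP-high cells, 1 a member (Ugt1a1, -0.67, edgeR adjusted p = 0.0192), and 36 in GFP-low cells, 1 a member (Aldh1a1, -1.67, edgeR adjusted p = 0.00451). Only numbers 3 and 6 occur in both genotypes, for different mice, whose deviations correlated at -0.077 to -0.10, so this block does not pair mice. Leaving out 1 library gave 0 to 1 genes in GFP-high cells (1 without KO mouse 2) and 1 to 2 in GFP-low cells (2 without KO mouse 4), no member among them. The cause of these changes was not tested.

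Between populations, the block of the mouse left 40 members higher and 10 lower in WT mice, and 42 higher and 9 lower in KO mice, adding Ugt1a9 in WT and Aldh3a2 and Cyp2j9 in KO mice, and changed no other call of a member. Cyp4f15 passed in KO mice with library totals alone (-1.02, edgeR adjusted p = 0.0430). In the 10 WT libraries left out in turn, Aldh6a1 was lost in 9, Aldh1b1 in 6, Cyp4f13 in 5, Aldh7a1 in 4 and Aldh3a2 in 2; in the 10 KO libraries, Ugt1a9 was lost in 7, Aldh18a1, Aldh1a7 and Ugt1a6a each in 5, and Ces1e in 4. Ugt1a6a in WT mice was also lost in the fit over all libraries (edgeR adjusted p = 0.0540). In GFP-low cells the replicate block across genotypes gave 31 members an unadjusted p under 0.05, where 14 had one without it. That block fit rested on numbers 3 and 6 alone, the only ones in both genotypes. Depth limits the members near the tables' floor, such as Ugt1a9, Cyp2c66 and Cyp1a1, whose libraries hold few counts.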
